A study of Mus musculus with 6 samples.

Results

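The genes described here are those of the class II major histocompatibility complex (MHC) and its helpers in mouse B cells. There are 10, chosen by gene symbol among the 24346 symbols in the tables. They are the class II chain genes H2-Aa, H2-Ab1 and H2-Eb1, the invariant chain gene Cd74, the H2-M genes H2-DMa, H2-DMb1 and H2-DMb2, the H2-O genes H2-Oa and H2-Ob, and Ciita, the gene of the class II transactivator. All 10 had a value in each of the 6 libraries, and all 10 passed the filter on low values described below.

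RNA was sequenced from splenic follicular B cells, the recirculating mature B cells of the spleen. They were sorted as B220+ CD93- cells with low CD21 and high CD23 from mice of 8 weeks. The WT group (3 libraries) came from B6 control mice, and the G9gl group (3 libraries) from mice homozygous for G9gl, a knock-in of the heavy and light chains of the germline precursor of a lupus antibody against double-stranded DNA. The study compared the groups to learn about the anergic state of G9gl B cells, in which self-reactive cells persist but respond weakly. The labels do not say whether each library was made from a separate mouse or from pooled mice. The p-values therefore reflect the spread between the 6 libraries only, and that spread may be technical.

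Class II molecules carry peptides from endosomes to the cell surface, where helper T cells read them. An alpha and a beta chain pair in the endoplasmic reticulum with the invariant chain, which fills the peptide groove and directs the complex to endosomes. There proteases trim the invariant chain, H2-M exchanges its last fragment for antigen peptides, and H2-O, found mainly in B cells, restrains H2-M. Ciita binds no DNA itself and acts through a complex of RFX, CREB and NF-Y proteins assembled on the X and Y boxes of class II promoters.

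The values are FPKM, fragments divided by transcript length in kilobases and by the library's mapped fragments, so levels of different genes can be compared per length. Each library held an estimated 10440000 to 12480000 fragments, and the 10 genes rested on an estimated 2800 fragments at least (H2-DMb1) and 568100 at most (Cd74) per library. The library estimates fitted best with 250 to 300 bases taken off each transcript length, so the length behind the values is likely a reduced one. The estimates per gene used the full length and are therefore likely too high. The FPKM totals were 603054 to 611557 in WT and 657759 to 671533 in G9gl. Of 7 B cell markers, 5 were called lower in G9gl by the test described below (Cr2, Ms4a1, Fcer2a, Cd79a and Pax5), 1 was called higher (Cd22) and 1 did not pass (Cd79b). Across all tested genes 11.6% were called lower and 11.8% higher. The 7 markers summed to 7360.1 to 7542 FPKM in WT and to 6651 to 6937 in G9gl. Cr2, which encodes the sorting marker CD21, fell 2.13-fold from 131 ± 7.20 to 61.2 ± 2.42 FPKM (here and below, mean ± SD over the 3 libraries of a group). Ms4a1, the gene of CD20, fell 1.34-fold (adjusted p 0.00078), and Fcer2a, the gene of the sorting marker CD23, 1.19-fold (adjusted p 0.010). The calls for Cd79a, Pax5 and Cd22 were each lost in 4 or more of the alternative settings and left-out libraries. The most abundant, Cd79b, stood at 2473 ± 53.6 FPKM in WT and 2424 ± 32.1 in G9gl.

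RefSeq promoters (GRCm38.p6, 250 bases before to 50 after a start site) were found for 7 of the 10 genes. They are shown because the class II chain genes and their chaperones are known to share the X and Y boxes. Capitals mark the Y box letters TGATTGG (7 letters, which hold CCAAT on the other strand), the X box letters AACNNATG and, in H2-Aa, the letters TGACGTCA. Sequences read 5′ to 3′ on the gene's strand and end at the Y box. H2-Oa is cut to 30 bases because its last base lies in an annotated exon. H2-Eb2, another class II beta gene, is set beside the others.
H2-Oa (chr17:34092311-34092340, plus strand): cccattatctcagagaactgctcTGATTGG
H2-DMb2 (chr17:34145112-34145163, plus strand): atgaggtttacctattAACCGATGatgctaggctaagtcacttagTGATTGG
H2-Ob (chr17:34238801-34238852, plus strand): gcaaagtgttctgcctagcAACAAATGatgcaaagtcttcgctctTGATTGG
H2-Aa (chr17:34287867-34287918, minus strand): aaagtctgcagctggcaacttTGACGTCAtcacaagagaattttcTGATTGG
H2-Eb1 (chr17:34305761-34305812, plus strand): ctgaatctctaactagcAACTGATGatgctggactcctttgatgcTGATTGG
H2-Eb2 (chr17:34325528-34325579, plus strand): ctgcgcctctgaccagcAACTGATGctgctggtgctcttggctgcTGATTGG

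The Y box letters stood in the promoters of 6 of the 7 genes (H2-Oa, H2-DMb2, H2-DMb1, H2-Ob, H2-Aa and H2-Eb1), 45 to 92 bases before the start site, and in neither H2-DMa promoter. On either strand they occur in 7.82% of all 32851 promoters of 300 bases, AACNNATG in 8.86% and TGACGTCA in 1.79%. AACNNATG with TGATTGG after it, starts 20 to 40 bases apart, was found in 11 promoters (0.0335%). Of those, 4 belong to the genes described here (H2-DMb1, H2-DMb2, H2-Ob and H2-Eb1) and 1 to H2-Eb2. The spacing was 26 bases in H2-Ob, 28 in H2-Eb1 and H2-Eb2, and 29 in H2-DMb1 and H2-DMb2. The letters were picked after these sequences were read, so the shares only describe how common such strings are, and a match is not evidence of a bound site. H2-DMb2, the gene that did not pass the test below, held the pair of letters, as did H2-DMb1, H2-Ob and H2-Eb1, which rose. H2-Oa, H2-DMa and H2-Aa also rose, and the pair was not found in their promoter windows. AACNNATG is a strict spelling, so not finding the pair is not evidence that the boxes are absent.

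Class II genes and chaperones rose in G9gl B cells, from the transactivator to the surface chains. Of the 10, 9 were called higher, 0 lower (also 0 at an unadjusted p under 0.05) and 1 (H2-DMb2) did not pass. The test was limma on log2(FPKM + 1) over the 10122 genes that reached 1 FPKM in 3 or more libraries, with a call at a Benjamini-Hochberg adjusted p under 0.05. Across all tested genes, 11.8% were called higher and 23.4% were called in either direction. These were 1191 genes higher and 1174 lower. On the TPM scale the split was 730 against 2493, with each of the 9 class II genes still called higher. The 9 genes were also those whose G9gl libraries all lay above all WT libraries, against 20.3% of tested genes. The median log2 fold change of the 10 genes was 0.44, against -0.0022 over all tested genes. Together they summed to 46766 ± 1359 FPKM in WT and 61053 ± 1768 in G9gl, and held 7.44% to 7.99% of the FPKM total in WT libraries against 9.01% to 9.39% in G9gl libraries.

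**Figure D1:**
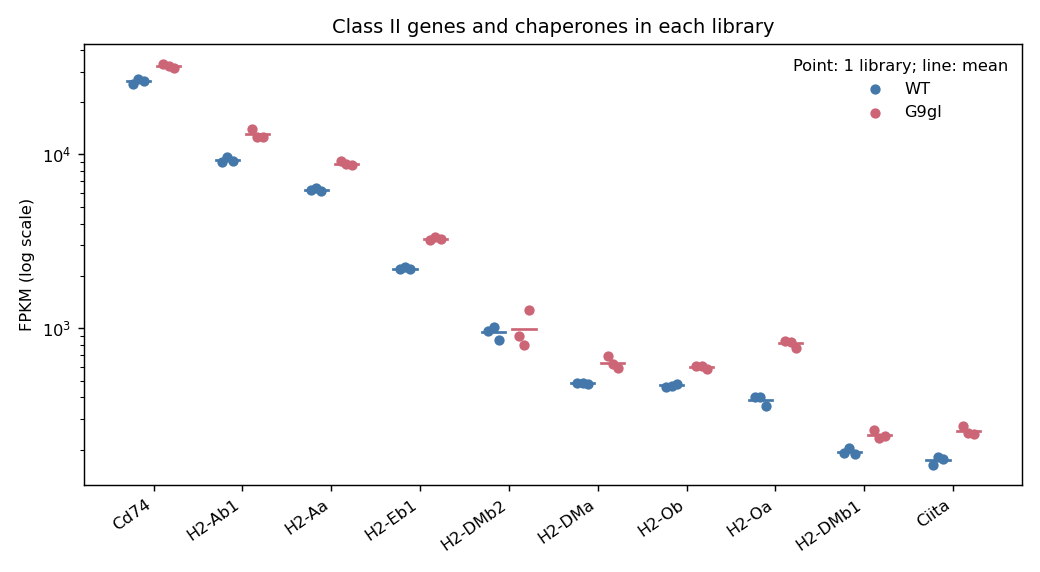
FPKM (log scale) of each of the 10 genes, ordered by their WT mean, with a point for each WT (blue) and G9gl (red) library and a line at each group mean. The groups separate for 9 genes, and for H2-DMb2 they overlap because G9gl replicate 3 lies at 1268 and the other G9gl libraries at 901 and 805.

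The surface chains were among the most abundant transcripts per length and rose by a similar amount. H2-Ab1 (chromosome 17, 34257689 to 34269419, mm10), the beta chain of the class II molecule I-A, stood at 9034, 9668 and 9224 FPKM in the WT libraries and at 13931, 12665 and 12647 in the G9gl libraries. It was the second or the third most abundant gene of each library. Its log2 fold change was 0.49 ± 0.057 (SE), a 1.40-fold rise with a limma adjusted p of 0.00033. H2-Aa (chromosome 17, 34282744 to 34287823), the alpha chain of I-A, stood at 6212, 6405 and 6166 FPKM in WT and at 9200, 8753 and 8647 in G9gl. Its lowest G9gl library was well above its highest WT library, and it rose 1.42-fold (log2 fold change 0.50 ± 0.048, adjusted p 0.00011).

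H2-Eb1 (chromosome 17, 34305867 to 34316674) encodes the beta chain of I-E, the other class II molecule. It had 2182, 2241 and 2186 FPKM in WT and 3220, 3334 and 3248 in G9gl, a 1.48-fold rise (log2 fold change 0.57 ± 0.044, adjusted p 3.2e-05). The spread within each group was small beside the gap between them. C57BL/6 mice are known to lack the I-E alpha chain, so the beta chain reaches the surface poorly in them. The alpha gene, named H2-Ea-ps in the tables, stayed below 1 FPKM in all 6 libraries and was not tested. H2-Eb2, a little-studied relative of H2-Eb1, rose 1.44-fold from 18.98 ± 2.72 to 27.6 ± 1.92 FPKM (adjusted p 0.0065).

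Cd74 (chromosome 18, 60803848 to 60812652), the invariant chain gene, had the highest FPKM of all genes in every library. Its values were 25419, 27136 and 26458 FPKM in WT and 33129, 32286 and 31465 in G9gl. The groups did not overlap, but its rise of 1.23-fold was the smallest of the 9 (log2 fold change 0.29 ± 0.052, adjusted p 0.0033). Cd74 alone held 4.16% to 4.50% of the FPKM total in WT and 4.78% to 4.93% in G9gl. Its call was lost when low genes were kept in the fit (log2 fold change 0.29, adjusted p 0.37) and after quantile normalization, which sets the top gene of every library to the same value.

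Among the H2-M genes, H2-DMa and H2-DMb1 were called higher and H2-DMb2 did not pass. The ratios of H2-DMb2 to H2-DMb1 and of H2-DMb1 to H2-DMa overlapped between the groups, so unequal changes were not shown. H2-DMa (chromosome 17, 34119541 to 34139101), the alpha chain of H2-M, had 482, 488 and 478 FPKM in WT and 691, 624 and 591 in G9gl, and rose 1.31-fold (adjusted p 0.0016). The WT libraries lay close together and the G9gl libraries spread more widely above them. H2-DMb1 (chromosome 17, 34153072 to 34160230), a beta chain gene, had 192, 204 and 189 FPKM in WT and 258, 233 and 242 in G9gl, a 1.25-fold rise (adjusted p 0.0036).

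H2-DMb2 (chromosome 17, 34143307 to 34151555), the second beta chain gene, was the more abundant of the pair. Its values were 963, 1019 and 857 FPKM in WT and 901, 805 and 1268 in G9gl, so that G9gl replicate 3 was the highest library and G9gl replicate 2 the lowest. The log2 fold change was 0.04 ± 0.143, with a 95% interval of -0.28 to 0.37 and an adjusted p of 0.86. Without G9gl replicate 3 the log2 fold change was -0.15 (adjusted p 0.27), and without WT replicate 3 it was -0.03. Of the 50-base strings in the H2-DMb1 transcript, 27.2% also occur in H2-DMb2 transcripts, and 29.5% of those of H2-DMb2 occur in other genes, so fragments of these near copies could be split between them. The sum of both beta genes was 1141 ± 89.6 FPKM in WT and 1235 ± 245 in G9gl. None of the other 8 genes shared a 50-base string with transcripts of another gene.

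H2-Oa showed the largest difference of the 10. H2-Oa (chromosome 17, 34092340 to 34095234), the alpha chain of H2-O, had 404, 401 and 359 FPKM in WT and 847, 835 and 773 in G9gl. Its lowest G9gl library was well above its highest WT library. The rise was 2.11-fold, with a log2 fold change of 1.08 ± 0.061 (95% interval 0.94 to 1.21) and an adjusted p of 5.5e-06, and 1.31% of tested genes had a higher log2 fold change. H2-Ob (chromosome 17, 34238903 to 34254414), its beta chain partner, had 460, 466 and 480 FPKM in WT and 604, 604 and 584 in G9gl. It rose 1.27-fold (log2 fold change 0.35 ± 0.045, adjusted p 0.00063), with little spread in either group.

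Ciita (chromosome 16, 10480059 to 10528418) rose with the genes it is known to drive. It had 164, 182 and 177 FPKM in WT and 275, 251 and 246 in G9gl. All G9gl libraries lay above all WT libraries, and the rise was 1.47-fold (log2 fold change 0.56 ± 0.062, adjusted p 0.00027). Ciita is transcribed from several promoters, which these values per gene do not separate.

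**Figure D2:**
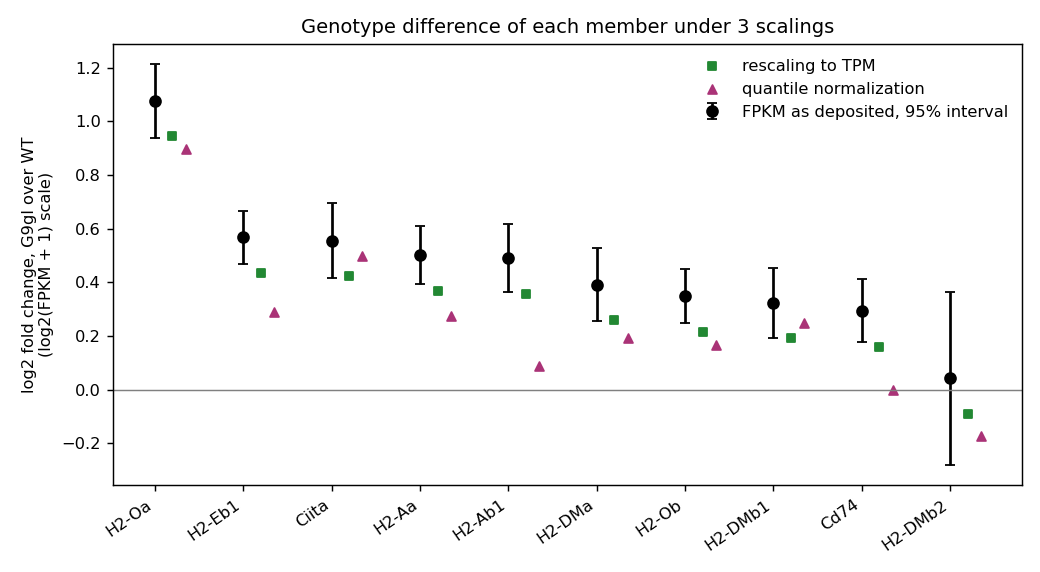
log2 fold change of each gene in G9gl over WT, with its 95% interval from limma (black), and the value after rescaling to TPM (green squares) and after quantile normalization (purple triangles). H2-Oa stays near 1 under each scaling, while Cd74 falls to 0 and H2-Ab1 to 0.09 after quantile normalization.

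The order of the levels changed around H2-O. In WT, Cd74 was followed by H2-Ab1, H2-Aa, H2-Eb1 and H2-DMb2, each with libraries that did not overlap its neighbour's. H2-DMa and H2-Ob came next and overlapped, followed by H2-Oa, H2-DMb1 and Ciita. In G9gl, H2-Oa stood above H2-DMa and H2-Ob and overlapped H2-DMb2, and Ciita overlapped H2-DMb1.

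Ratios of FPKM within a library are unchanged by any factor applied to the whole library, though not by quantile normalization, after which the log2 fold changes of Cd74, H2-Ab1 and Ciita were 0, 0.09 and 0.50. H2-Oa to H2-Ob was 0.878, 0.859 and 0.748 in WT and 1.40, 1.38 and 1.32 in G9gl, a 1.65-fold shift. The alpha chain transcript of H2-O was thus below its partner per length in every WT library and above it in every G9gl library. H2-Oa to H2-DMa was 0.838, 0.822 and 0.751 in WT and 1.23, 1.34 and 1.31 in G9gl, a 1.61-fold shift.

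Cd74 to H2-Ab1 moved the other way, from 2.81, 2.81 and 2.87 in WT to 2.38, 2.55 and 2.49 in G9gl, 1.15-fold lower. H2-DMa to H2-Ab1 was 1.07-fold lower and Ciita to H2-Ab1 1.05-fold higher in G9gl. These 5 ratios were the ones whose groups did not overlap, and each had p = 0.10 in an exact two-sided permutation test over libraries. That is the smallest value that 3 against 3 allows, and the adjusted p over the 9 ratios was 0.18.

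The alpha and beta chains of I-A kept close to the same proportion. H2-Aa to H2-Ab1 was 0.688, 0.663 and 0.668 in WT and 0.660, 0.691 and 0.684 in G9gl, and the groups overlapped (difference 0.01 on the log2 scale, exact permutation p = 0.80). H2-Eb1 to H2-Ab1 (exact permutation p = 0.40), H2-DMb2 to H2-DMb1 (p = 0.40) and H2-DMb1 to H2-DMa (p = 0.30) overlapped as well. H2-DMb2 to H2-DMb1 was 3.48, 3.45 and 5.23 in the G9gl libraries, against 4.52 to 5.003 in WT.

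**Figure D3:**
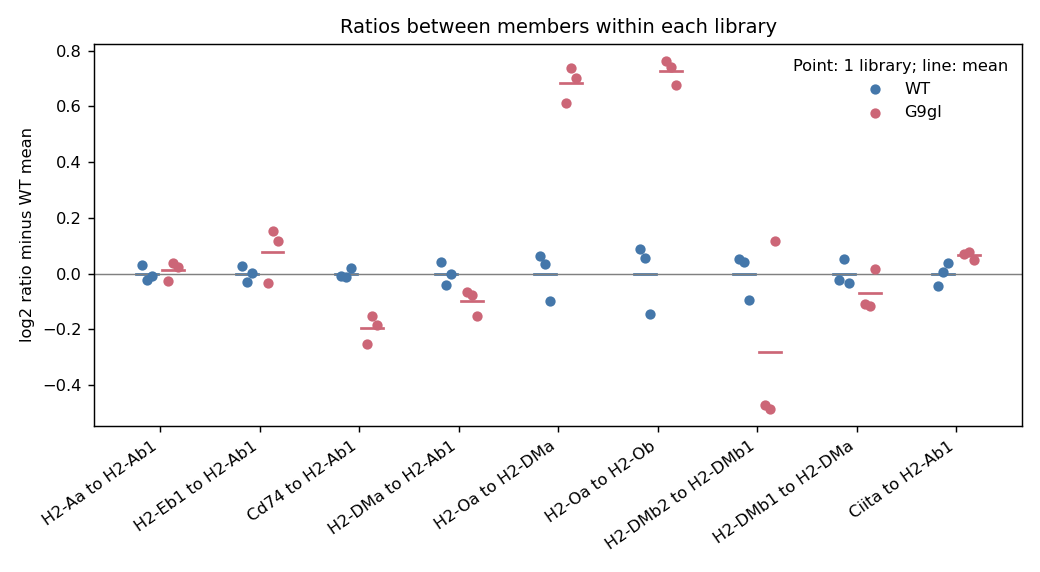
log2 ratio of pairs of genes in each library minus the WT mean, with a point for each WT (blue) and G9gl (red) library and a line at each group mean. The ratios of H2-Oa to H2-DMa and to H2-Ob stand apart by 0.68 and 0.73, Cd74 to H2-Ab1 is lower by 0.20, and H2-Aa to H2-Ab1 lies near 0.

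The 8 class II genes of chromosome 17 lie within a single stretch, with H2-Oa at one end and H2-Eb1 at the other. Among them lie 5 other tested genes, of which 3 were called higher, 0 lower and 2 did not pass. Over all tested genes 11.8% were called higher and 11.6% lower. Tap1, a subunit of the peptide transporter for class I, rose 1.72-fold from 132 ± 10.3 to 228 ± 5.34 FPKM (adjusted p 4.5e-05). Psmb9 and Psmb8, immunoproteasome subunit genes, rose 1.71-fold (adjusted p 7.3e-05) and 1.22-fold (adjusted p 0.0035). The call for Psmb8 was lost after quantile normalization (log2 fold change 0.11, adjusted p 0.14). Brd2, which encodes a reader of acetylated histones, and Tap2, the other transporter subunit, did not pass, with log2 fold changes of 0.07 and 0.06. Genes called higher and genes that did not pass lie side by side along the region, and not passing does not show that a gene was unchanged.

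**Figure D4:**
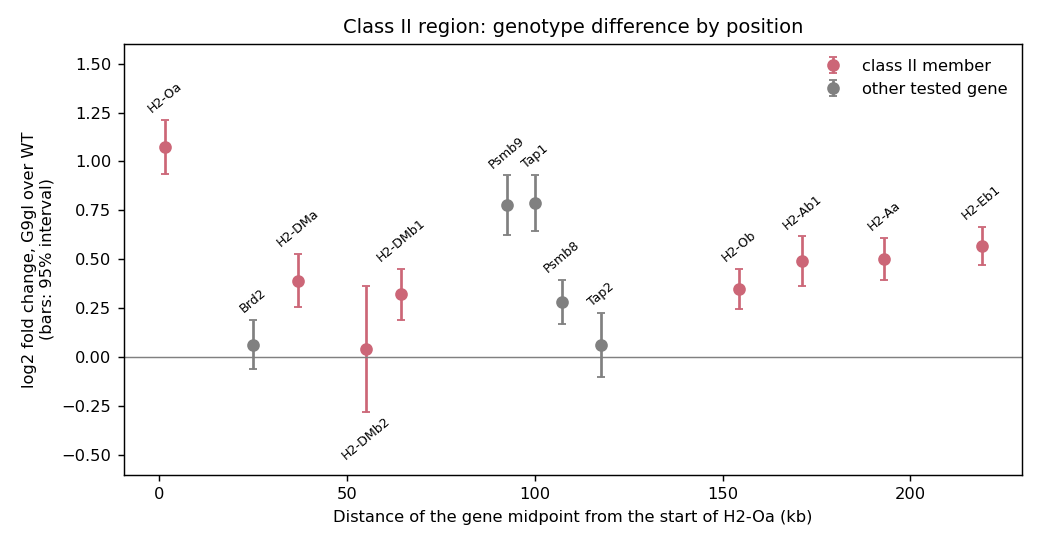
log2 fold change in G9gl over WT, with its 95% interval, against the distance of each gene's midpoint from the start of H2-Oa in kb, for the class II genes (red) and the 5 other tested genes among them (grey). H2-Oa at the left end is highest at 1.08, and Brd2, H2-DMb2 and Tap2 have intervals that include 0.

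Genes of the complex that binds class II promoters did not pass the test. Of 7 tested (Rfx5, Rfxank, Rfxap, Nfya, Nfyb, Nfyc and Creb1), 0 were called, with a median log2 fold change of 0.10. Across all tested genes 23.4% were called, and with so few genes a count of 0 is little below that share. The groups did not overlap for 5 of the 7 (Rfxank and Nfyc higher, Rfxap, Nfyb and Creb1 lower). Across all tested genes they stood apart for 20.3% as higher and 20.5% as lower. In the same limma fit 0 had an unadjusted p under 0.05 as higher and 1 (Nfyb) as lower. The smallest adjusted p was 0.061, for that NF-Y subunit gene, which had 20.5 ± 0.932 FPKM in WT and 17.4 ± 0.910 in G9gl. Rfx5, the gene of the DNA-binding RFX subunit, had 24.3 ± 2.43 FPKM in WT and 26.7 ± 0.686 in G9gl (adjusted p 0.28). With values rescaled to TPM, Nfyb and Rfxap passed as lower (log2 fold changes of -0.36 and -0.28).

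Factors known to act on Ciita or upstream of it went both ways. Across all tested genes 11.8% were called higher and 11.6% lower. Of the 15 factors tested 4 were higher, 4 were lower and 7 did not pass. Those higher were Irf1, Irf8, Jak3 and Il2rg. Irf1, an interferon-induced factor that binds a Ciita promoter, rose 1.69-fold from 134 ± 11.2 to 227 ± 7.85 FPKM (adjusted p 7.3e-05), and Irf8 1.42-fold from 344 ± 12.4 to 490 ± 17.5. Jak3, a kinase of cytokine receptors with the common gamma chain, stood at 124, 80.6 and 79.4 FPKM in the G9gl libraries, against 45.6 ± 1.15 in WT (2.01-fold, adjusted p 0.0012). Il2rg, the gene of that gamma chain, rose 1.26-fold, a call lost after quantile normalization (log2 fold change 0.12, adjusted p 0.20).

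Those lower were Spi1, Tcf3, Stat6 and Jak2. Spi1, which encodes the lymphoid and myeloid factor PU.1, fell 1.31-fold from 120 ± 5.51 to 91.9 ± 3.17 FPKM, and Tcf3, the gene of E2A, 1.29-fold from 100 ± 5.12 to 77.4 ± 3.03. Stat6, the factor of interleukin-4 signals, which raise class II in B cells, fell 1.20-fold (adjusted p 0.012), and without WT replicate 2 its adjusted p was 0.052. Jak2, a kinase of the interferon gamma receptor, fell 1.96-fold from 28.0 ± 4.62 to 14.0 ± 3.47 FPKM (adjusted p 0.0035).

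Genes of endosomal antigen processing were mostly higher, with 8 of the 14 tested called higher, 1 called lower and 5 that did not pass (median log2 fold change 0.26). The shares over all tested genes were 11.8% higher and 11.6% lower, but this list, like the others, was chosen with earlier results of these data known. Ctss, the protease known to trim the invariant chain in B cells, rose 1.29-fold from 677 ± 31.9 to 876 ± 33.2 FPKM (adjusted p 0.0011). Ctsh, a cathepsin with aminopeptidase activity, rose 1.34-fold, the aspartic protease gene Ctsd 1.29-fold, and Ifi30, which encodes a thiol reductase that unfolds antigens, 1.72-fold from 169 ± 9.93 to 294 ± 61.4 FPKM. Ctse, an aspartic protease gene, rose 26.8-fold on the log2(FPKM + 1) scale, from 6.71 ± 1.19 to 209.7 ± 55.0 FPKM. The call for Ctss was lost after quantile normalization (log2 fold change 0.14, adjusted p 0.065). That for Lamp1, also among the genes called higher, was lost on the TPM scale (log2 fold change 0.17, limma adjusted p 0.092). The gene called lower was Napsa, another aspartic protease gene, from 418 ± 8.58 to 362 ± 19.99 FPKM (adjusted p 0.022). Its adjusted p was up to 0.083 when 1 library was left out. Cst3 of the same list had a near-equal log2 fold change (-0.210, against -0.207 for Napsa) with groups apart, and did not pass (limma adjusted p 0.057).

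Genes that act on class II traffic and turnover included 12 tested genes, of which 1 was called higher, 2 were called lower and 9 did not pass (median log2 fold change -0.10). The share called is near the 23.4% of all tested genes. Cd83, whose protein protects class II from ubiquitination, rose 2.09-fold, with 813, 626 and 613 FPKM in the G9gl libraries against 324 ± 14.7 in WT (adjusted p 9.4e-05). March1, the gene of the ubiquitin ligase that marks class II for turnover, fell 1.20-fold from 38.6 ± 2.86 to 32.0 ± 2.002 FPKM (adjusted p 0.039). Cd37, a tetraspanin gene, fell 1.12-fold from 1072 ± 32.0 to 953 ± 31.2 FPKM (adjusted p 0.032). The calls for March1 and Cd37 were each lost without any 1 of 4 libraries, with adjusted p up to 0.13 and 0.11.

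Cd74 is also a surface receptor for the cytokine encoded by Mif. Of 5 genes of that pathway tested, 3 were higher, 1 lower and 1 did not pass, against 11.8% higher and 11.6% lower over all tested genes. Mif rose 1.30-fold from 405 ± 14.1 to 527 ± 18.6 FPKM (adjusted p 0.00073), and Ddt, the gene of a related ligand, also 1.30-fold (adjusted p 0.0038). Cxcr4, a chemokine receptor that forms a complex with Cd74, rose 3.49-fold from 18.998 ± 0.934 to 69.0 ± 7.98 FPKM. Cd44, the signalling partner of Cd74, fell 1.28-fold from 17.1 ± 0.362 to 13.2 ± 1.73 FPKM (adjusted p 0.026), and that call was lost without any 1 of the libraries except G9gl replicate 3.

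**Figure D5:**
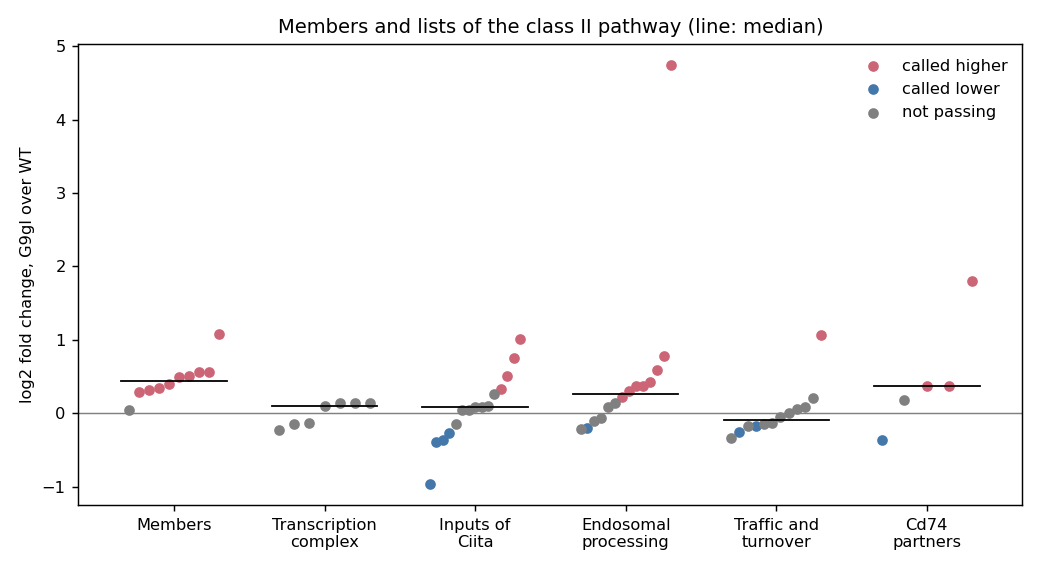
log2 fold change in G9gl over WT of the 10 genes and of the tested genes of 5 class II pathway lists, with a point for each gene (red called higher, blue called lower, grey not passing) and a line at each list's median. All but 1 of the 10 genes are called higher, the transcription complex has no call, and Ctse stands at 4.75.

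Macrophages and dendritic cells also express class II, and some of their markers moved with these genes. In bulk RNA, more cells of a type and more RNA per cell cannot be told apart. Of 16 macrophage markers, 11 were tested, 9 were called higher and 0 lower (10 and 0 at an unadjusted p under 0.05 in limma). Over all tested genes 11.8% were called higher and 11.6% lower. C1qb, a complement gene of tissue macrophages, rose 3.01-fold from 2.08 ± 0.793 to 8.11 ± 0.829 FPKM and Lyz2, the lysozyme gene, 1.89-fold from 6.57 ± 1.39 to 13.2 ± 1.19. The 16 markers summed to 23.6 to 31.6 FPKM in WT and to 61.3 to 68.9 in G9gl. How much class II RNA such cells carry was not measured, so these sums do not give their part in the class II values. Fcgr1, Mertk, Mrc1 and Cd14 stayed below 1 FPKM in every library.

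Of 11 dendritic cell markers, 5 were tested and 3 were called higher (Zbtb46, Sirpa and Cd209a), each with a mean below 4 FPKM. The share over all tested genes was 11.8%. The call for Cd209a was lost with no filter on low values and without WT replicate 2, WT replicate 3 or G9gl replicate 3 (adjusted p up to 0.086). Clec10a was listed at 0 in all 6 libraries, Clec9a at 0 in 5, and Itgax reached 0.551 FPKM at most. The 11 markers summed to 316 to 332 FPKM in WT and to 309 to 321 in G9gl, nearly all of it from Ccr7, which B cells express too. Single markers of other cells differed too. S100a8, a neutrophil gene, stood at 2.44 ± 1.44 FPKM in WT and 13.3 ± 5.06 in G9gl (adjusted p 0.0011). Sdc1, a plasma cell gene, stood at 9.81 ± 1.16 and 19.3 ± 4.99 (adjusted p 0.0056). The other tested genes of these lists, S100a9 for neutrophils and Xbp1 for plasma cells, did not pass (limma adjusted p 0.20 and 0.28). Mpo, Prdm1 and Tnfrsf17 stayed below 1 FPKM in every library and were not tested. Of the genes listed for immature B cells, Vpreb3 fell 2.43-fold from 403 ± 15.8 to 166 ± 15.3 FPKM (adjusted p 4.4e-06). Cd93 did not pass (1.65 ± 0.147 FPKM in WT and 1.46 ± 0.385 in G9gl, limma adjusted p 0.61), and Rag1 stayed below 1 FPKM. The only T cell marker tested did not pass. The part of these cells in the class II differences was not tested.

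The genes whose profile over the 6 libraries was nearest to the mean of H2-Aa, H2-Ab1, H2-Eb1 and Cd74 were sought among 6408 other genes with a mean of at least 10 FPKM. Profiles were log2(FPKM + 1) centred on the WT mean, and likeness was the root mean square distance. The mean profile was -0.03 to 0.04 in the WT libraries and 0.43 to 0.50 in the G9gl libraries. Nearness therefore mostly reflects a rise of similar size with little spread, and shared regulation was not tested. The nearest 5 were Nfkbia (distance 0.025), Pou2af1 (0.034), Fam214a (0.037), Irf8 (0.042) and Slc25a1 (0.043). Nfkbia, which encodes an inhibitor of NF-kB, went from 389 ± 13.3 to 525 ± 11.2 FPKM. Pou2af1, a B cell coactivator gene, went from 151 ± 2.76 to 210.3 ± 4.98 FPKM.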

How the data were processed

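The authors deposited FPKM values per gene symbol for 6 libraries. The submitters' processing notes name Cufflinks 2.2.1, SAMtools 0.1.19, TopHat2 2.0.13 and Bowtie2 2.2.3, and build mm10. Annotation, filters and scaling across libraries were not given in the sources used here. Per the labels' protocols, libraries were made with SMART-Seq HT and Nextera kits, which keep no strand.

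The unit was read from the tools and the values. The 10122 genes reaching 1 FPKM in 3 or more libraries were fitted with limma 3.58.1 in R 4.3.3 (eBayes with a trend) on log2(FPKM + 1) with a genotype term alone. The fit was tested on simulated data first. Fold changes are on that scale. Ratios were compared by exact permutation (scipy 1.17.1). Depth was estimated from the FPKM that 1 fragment gives in genes with a single transcript of at least 1500 bases. No pair of libraries shared more than 2 identical values above 0. Positions are those of GENCODE vM21 (GRCm38, which mm10 denotes), 1-based.

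The 10 genes and all lists were chosen with earlier results of these data known. All 10 genes are named. From each list up to 6 genes with the smallest p were taken, beside some chosen after their values were seen to complete a count, and the 5 genes nearest in profile. A gene of the list of Ciita inputs and a B cell marker are not reported here. FPKM depends on the total of mapped fragments, so alternatives included a rescaling to TPM, quantile normalization and median-ratio scaling.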

Additional observations from a re-analysis of the deposited data

How the results depend on the processing

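The count of class II genes called higher was 9 of 10 in each of the 15 alternatives except quantile normalization, where it was 7, and the fit with no filter on low values, where it was 8; the count lower was 0 in all of them. H2-Oa, H2-Eb1, H2-Aa, Ciita, H2-DMa, H2-Ob and H2-DMb1 kept their direction and call in all 15, with log2 fold changes of 0.90 to 1.12 for H2-Oa and 0.17 to 0.37 for H2-Ob. After quantile normalization H2-Ab1 had 0.09 (adjusted p 0.38) and Cd74 0 (adjusted p 1.0), which follows from their being the top genes of the libraries. H2-DMb2, which passed in none, reversed to -0.17 after quantile normalization, -0.09 with TPM, and -0.15 to -0.03 when the library that turned its sign (G9gl replicate 3 or WT replicate 3) was left out; over all single libraries left out its values ran from -0.15 to 0.18.

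Rescaling to TPM moved the median of all tested genes to -0.13, where 730 genes were called higher and 2493 lower against 1191 and 1174, and Brd2 turned to -0.067 and Tap2 to -0.068. With single libraries left out, all genes called lower ranged from 718 (without WT replicate 2) to 1172 and those called higher from 827 to 1136. The ratio of H2-Aa to H2-Ab1 ranged from -0.002 (without G9gl replicate 2) to 0.031 on the log2 scale.

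The labels state no pairing of same-numbered libraries. Their deviations from the group means correlated by 0.099, -0.069 and 0.021 for numbers 1, 2 and 3. For differently numbered libraries the correlations ran from -0.153 to 0.157. With 3 libraries per group, centred on their own mean, these values cannot show whether same-numbered libraries shared a batch. With the replicate number as a block, 1044 genes were higher and 988 lower, the 9 class II genes kept their calls, and those of March1 and Cd37 were lost. The number of libraries, 3 per group, limits the precision here.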
